A study of Arabidopsis thaliana with 7 samples.

Results

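A9, AMS, AT59 and ANX2 are marker genes of the anther with a known place of expression, chosen with earlier results of these data known. Their transcripts were followed over all 7 arrays of an Arabidopsis flower experiment. A9 (AT5G07230) and AMS (AT2G16910) mark the tapetum, and AT59 (AT1G14420) and ANX2 (AT5G28680) mark mature pollen. Each of the 4 lay on 1 of 13513 probe sets naming 1 gene, and all 4 passed the filter on dim probe sets. The question was what the markers show of anther content in flowers of different ARF6 and ARF8 genotype. Relative to wild type, both tapetum markers were higher and both pollen markers lower on every array of both mutants. Of all probe sets, 17.9% lay above and 15.5% below wild type on every double-mutant array. On every arf6/arf6 ARF8/arf8 array 15.8% lay above and 12.7% below, and the share over both mutants together was not counted. In the double mutant all 4 differences passed the test, as did 17.1% of all probe sets tested. AMS was kept for that test only through its mutant arrays and ANX2 only through its wild-type arrays, so the count of 4 supports nothing by itself.

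The tapetum is the innermost layer of the anther wall. It feeds the developing microspores, supplies material for the pollen coat, and is broken down before the pollen is ripe, so tapetum transcripts belong to younger anthers and late pollen transcripts to older ones. A9 encodes a small secreted protein of the tapetum, and AMS (ABORTED MICROSPORES) encodes a basic helix-loop-helix transcription factor needed for tapetum function. AT59 encodes a pectate lyase-like protein of pollen, and ANX2 (ANXUR2) a receptor-like kinase that keeps the growing pollen tube intact. ARF6 and ARF8 encode auxin response factors, and flowers lacking both are known to stop growing as closed, sterile buds whose anthers do not open.

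Each of 7 groups held 1 single-colour Affymetrix array of total RNA from flowers of stages 1 to 14, taken from plants grown for 6 weeks in long days. The auxin used was IAA, indole-3-acetic acid. Wild-type Columbia flowers were left untreated, given a mock spray or given IAA, and flowers labelled arf6/arf6 ARF8/arf8 and flowers labelled arf6 arf8 were left untreated or given IAA. The spray held 1% methanol and 0.05% Tween-20, both in the mock and in the IAA solution, and tissue was taken 30 minutes later according to the series text. The IAA dose is 10 µM in the labels and 10 mM in the series text, and the series text gives ARF6, not ARF8, as the heterozygous gene. The arf6/arf6 ARF8/arf8 flowers are called here the heterozygous mutant and the arf6 arf8 flowers the double mutant. The sources used here do not give the number of plants per array or say whether flowers were pooled, and ARF6 and ARF8 themselves lie on no named probe set, so the genotypes were not checked on the mutated genes.

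The deposited values are linear signal intensities, scaled by the authors to a common trimmed mean, and the median signal of the arrays lay between 240.95 and 261.5. The wild-type mock array had the highest 10th percentile, 26.9 against 9.4 to 17.89 on the others. With 1 array a group there is no replicate error. The p-values below come from an additive fit of genotype and treatment. They set a difference against the departure of all genotypes from that fit, moderated by the spread of the other probe sets. They do not measure how evenly the difference of a single genotype recurs in untreated and IAA flowers. In whole flowers, fewer cells of a type, less RNA per cell and another mixture of flower stages cannot be told apart.

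A9 read 517.6 in untreated, 552.1 in mock-sprayed and 696.4 in IAA-sprayed wild-type flowers. It read 1401.3 untreated and 1024.3 with IAA in the heterozygous mutant, and 2011.4 untreated and 1399.0 with IAA in the double mutant. Every mutant array lay above every wild-type array. The mutants overlapped each other, because the untreated heterozygous and the IAA-sprayed double-mutant arrays had nearly the same signal. Other gaps between neighbouring arrays in the order of signal were 0.09 to 0.56 on the log2 scale. The smallest of them separated the untreated and mock wild-type arrays. The moderated residual SD was 0.24. It is drawn toward the spread of the other probe sets, here and for the other markers, so it is not the spread of the gene alone.

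In wild type AMS read 177.6 untreated, 123.9 with mock and 217.1 with IAA, all under the array medians. In the heterozygous mutant it read 374.6 untreated and 292.2 with IAA. In the double mutant it read 321.1 untreated and 387.8 with IAA. Again no wild-type array reached a mutant array, whereas the mutants were interleaved. The 4 mutant arrays lay within gaps of 0.05 to 0.22 (log2), against a moderated residual SD of 0.19. AMS passed the filter, an intensity above 248.1 on at least 1 array, only through its mutant arrays, so a gene kept in this way had to be higher in a mutant.

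The pollen markers ran the other way. In wild type AT59 read 828.1 untreated, 921.5 after mock and 1063.5 after IAA. It read 626.8 and 675.1 in untreated and IAA-sprayed heterozygous flowers, and 477.6 and 407.5 in those of the double mutant. This was the single marker of the 4 whose signal separated all 3 genotypes without overlap. Of 13021 probe sets tested, 4.68% fell in this order from wild type through the heterozygous to the double mutant without overlap, and 5.21% rose. The gap between wild type and the heterozygous mutant was 0.29 and that between the mutants 0.39 (log2). The moderated residual SD was 0.17.

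In wild type ANX2 read 365.9 untreated, 408.6 after mock and 531.1 after IAA. It read 206.8 and 185.8 in untreated and IAA-sprayed heterozygous flowers and 193.2 and 129.0 in double-mutant flowers. The step below the wild-type arrays, 0.82 (log2), was the largest gap in the order of any marker. Within the mutants, 3 of the 4 arrays lay within gaps of 0.06 and 0.10, under the moderated residual SD of 0.25. The double-mutant IAA array lay below them. ANX2 passed the filter only through its wild-type arrays, the mirror image of AMS.

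**Figure D1:**
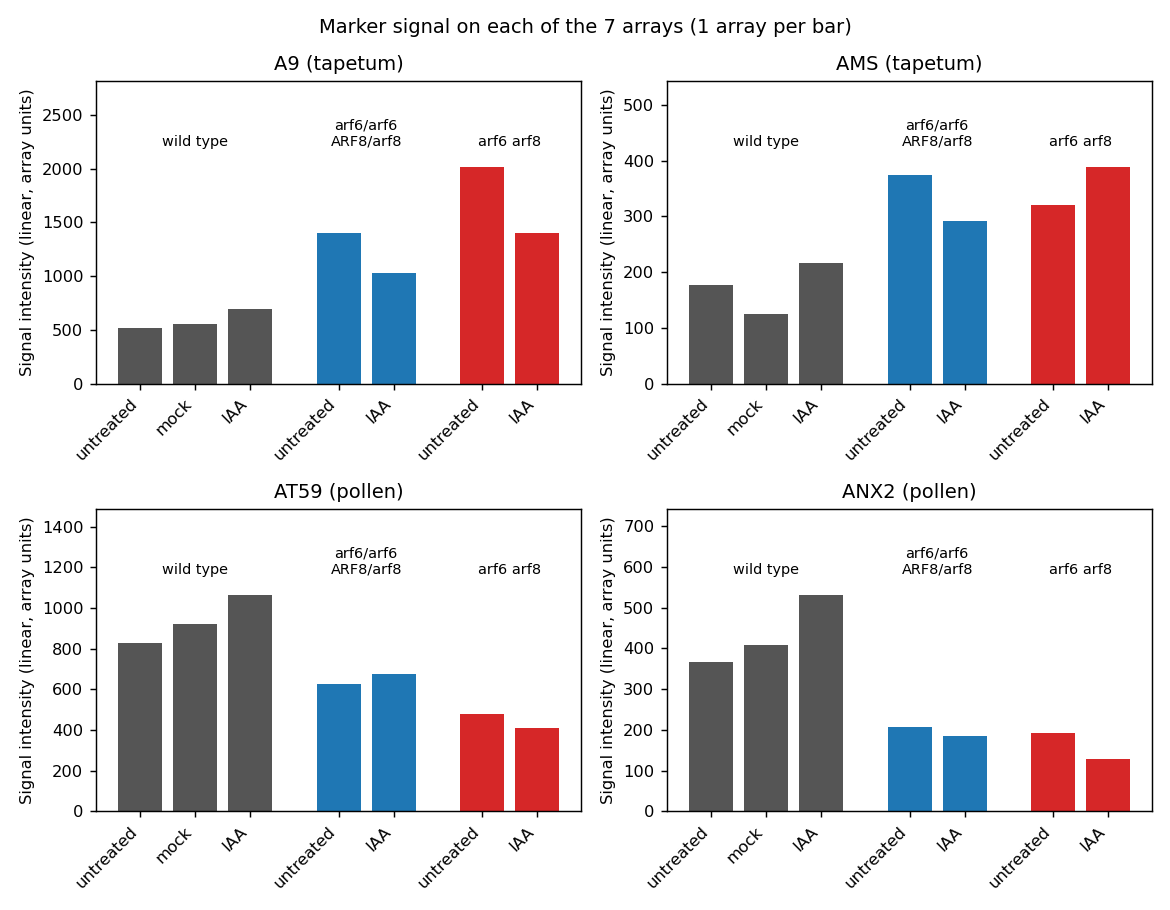
Signal intensity (linear, from 0) of A9, AMS, AT59 and ANX2 on each of the 7 arrays, 1 bar per array, with wild type in grey, arf6/arf6 ARF8/arf8 in blue and arf6 arf8 in red. A9 and AMS are higher and AT59 and ANX2 lower on all 4 mutant arrays than on the 3 wild-type arrays; there are no error bars because each group is 1 array.

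The ratio of a tapetum to a pollen signal on the same array does not depend on how arrays were scaled to each other. Its size mixes the brightness of different probe sets and has no meaning by itself, so only its change between arrays is read. A9 over AT59 was 0.599 to 0.655 on the wild-type arrays, 1.52 to 2.24 in the heterozygous and 3.43 to 4.21 in the double mutant. A9 over ANX2 was 1.31 to 1.41, 5.51 to 6.78 and 10.4 to 10.8 in that order. In both ratios the genotypes stood apart, and the wild-type arrays were nearly level although the single signals varied. AMS over AT59 also separated the genotypes, at 0.134 to 0.214, 0.433 to 0.598 and 0.672 to 0.952. AMS over ANX2 did not separate the mutants, with 1.57 to 1.81 in the heterozygous and 1.66 to 3.01 in the double mutant, but set both apart from wild type at 0.303 to 0.485. The tapetum signals were higher and the pollen signals lower on every mutant array, so every ratio had to separate the mutants from wild type. That separation adds nothing to the single signals. The order of the mutants rests on the same 4 signals, and AT59 by itself already separated them. No marker passed the test of the mutants against each other. Ratios of other gene pairs were not counted, so the share with this order is not known.

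**Figure D2:**
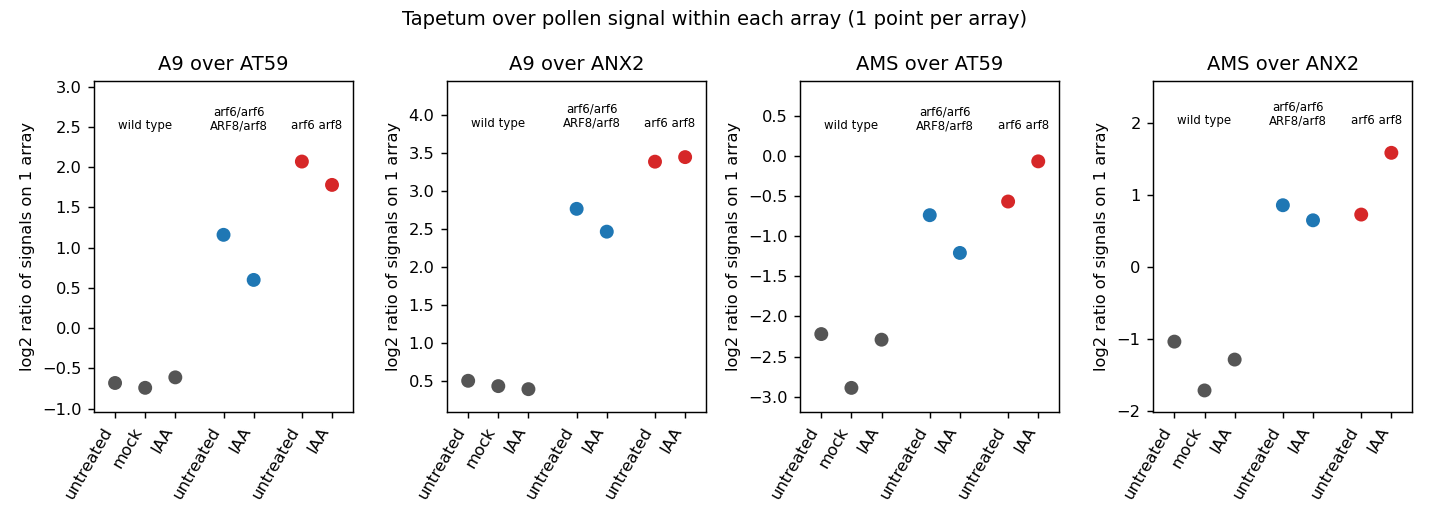
The log2 ratio of a tapetum signal (A9 or AMS) to a pollen signal (AT59 or ANX2) on each array, 1 point per array, coloured by genotype. In all 4 panels every mutant array lies above every wild-type array, which follows from the directions of the single signals. In 3 of them the double mutant also lies above the heterozygous mutant, which rests on the same 4 signals. No marker passed the test between the mutants.

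Against wild type, A9 was 2.79-fold higher and AMS 1.80-fold higher in the double mutant (log2 difference 1.48 ± 0.24 and 0.85 ± 0.19, SE; limma, adjusted p = 0.00901 and 0.0275). AT59 was 2.13-fold and ANX2 2.79-fold lower (log2 difference -1.09 ± 0.17 and -1.48 ± 0.25; limma, adjusted p = 0.00815 and 0.0107). Over all probe sets tested 17.1% were called in this comparison, 9.14% higher and 7.96% lower. Without overlap between the genotypes, 17.9% of all probe sets lay above wild type and 15.5% below. The members were chosen with earlier results known, so their count of 4 is a description.

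The size of these differences was uneven between treatments. A9 was 3.89-fold higher in untreated and 2.01-fold higher in IAA-sprayed double-mutant flowers. For the pollen markers the IAA pair gave the larger difference: the double-mutant signal of AT59 was 0.577 of wild type untreated and 0.383 with IAA, and that of ANX2 0.528 and 0.243. AMS was close to even, with ratios of 1.81 and 1.79. Without the double-mutant IAA array none of the 4 passed (limma, adjusted p from 0.0577 to 0.172); A9 and AMS also lost the call without the untreated double-mutant array (0.069 and 0.0668), and AMS without the untreated wild-type array (0.102). The mock array does not enter the genotype differences of this fit, which were the same without it.

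In the heterozygous mutant the 4 markers had the same directions, and none passed over all genes. The log2 differences from wild type were 1.00 ± 0.24 for A9, 0.75 ± 0.19 for AMS, -0.53 ± 0.17 for AT59 and -1.17 ± 0.25 for ANX2 (limma, adjusted p = 0.0804, 0.089, 0.148 and 0.0612). In this comparison 2.76% of probe sets were called, 1.14% higher and 1.62% lower, and 15.8% of all probe sets lay above and 12.7% below wild type without overlap. Both mutants are set against the same wild-type arrays, so the shared direction is not independent. With 1 array left out, A9 passed without the IAA wild-type array, ANX2 without the untreated wild-type array and AMS without the IAA array of the heterozygous mutant (limma, adjusted p = 0.00596, 0.00808 and 0.0488).

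Set directly against each other, the mutants differed by 0.49 ± 0.24 for A9, 0.09 ± 0.19 for AMS, -0.56 ± 0.17 for AT59 and -0.31 ± 0.25 for ANX2 (log2, double minus heterozygous). None passed (limma, adjusted p = 0.419, 0.869, 0.215 and 0.622), where 1.25% of all probe sets did. For AT59 the double mutant was lower in both pairs, at 0.762 of the heterozygous signal untreated and 0.604 with IAA. For AMS the pairs disagreed, with ratios of 0.857 untreated and 1.33 with IAA.

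At 30 minutes after the IAA spray no marker had moved past the test, and 1.08% of all probe sets were called. Untreated flowers were not sprayed, so this comparison includes the spray itself. Only wild type had a mock array, so in the mutants effects of IAA and of the spray cannot be told apart. The fitted log2 differences over the genotypes were -0.18 ± 0.19 for A9, 0.07 ± 0.16 for AMS, 0.08 ± 0.14 for AT59 and -0.07 ± 0.20 for ANX2 (limma, adjusted p from 0.685 to 0.897). Behind these small averages the genotypes went different ways. In wild type all 4 markers were brightest on the IAA array, at 1.35, 1.22, 1.28 and 1.45 times the untreated signal for A9, AMS, AT59 and ANX2. Of all probe sets tested 30.4% were brightest on that array among the wild-type arrays. In the double mutant A9 and ANX2 were at 0.696 and 0.668 of the untreated signal and AT59 at 0.853, while AMS was at 1.21. In the heterozygous mutant A9, AMS and ANX2 were at 0.731, 0.78 and 0.898, while AT59 was at 1.08. Of all probe sets tested, 11.7% were above untreated in wild type and below it in both mutants, as A9 and ANX2 were. A fit that let the IAA response of the double mutant differ from the rest, leaving 1 residual degree of freedom, gave log2 differences of response of -0.51 ± 0.40 for A9, 0.31 ± 0.32 for AMS, -0.46 ± 0.21 for AT59 and -0.77 ± 0.34 for ANX2. None passed (limma, adjusted p from 0.48 to 0.721), and neither did any other probe set, with 1461 at an unadjusted p under 0.05.

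The mock spray in wild type gave log2 differences from untreated of -0.21 ± 0.31 for A9, -0.63 ± 0.25 for AMS, 0.01 ± 0.22 for AT59 and -0.14 ± 0.32 for ANX2, none past the test (limma, adjusted p = 0.792, 0.262, 0.985 and 0.88; 0.753% of all probe sets were called). These rest on 1 mock array, which adds nothing to the residual spread and is set against the untreated wild-type level as fitted over all genotypes, so their signs can differ from those of the raw ratios. The raw ratio of mock over untreated was 1.07 for A9, 0.698 for AMS, 1.11 for AT59 and 1.12 for ANX2, so AMS was the marker that read lowest with mock. The IAA array was brighter than the mock array for every marker, by 1.26, 1.75, 1.15 and 1.30 times.

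**Figure D3:**
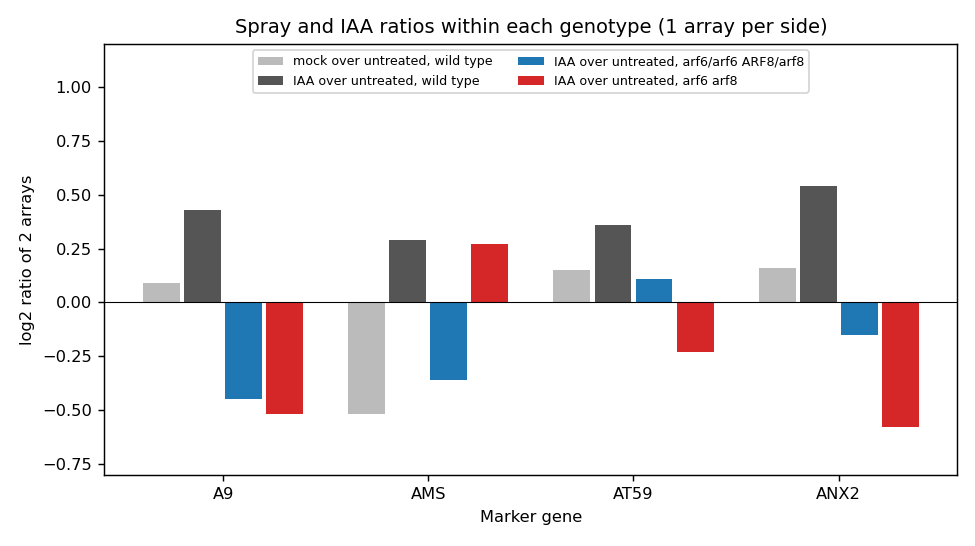
The log2 ratio of sprayed over untreated flowers for each marker, in light grey for mock in wild type and for IAA in dark grey (wild type), arf6/arf6 ARF8/arf8 (blue) and arf6 arf8 (red), each bar from 1 array per side. The IAA bars of wild type all lie above 0, from 0.29 to 0.54, while A9 and ANX2 lie below 0 in both mutants.

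Other tapetum genes were taken from a list of 37 further regulators and products, of which 8 had a named probe set and 4 of those exceeded the filter. The list was chosen with earlier results of these data known, so its counts are a description. In the double mutant 3 of the 4 rose and 0 fell, where 9.14% of all probe sets tested were called higher. The 3 became 0 without the double-mutant IAA array, 1 without the untreated double-mutant array and 2 without the untreated wild-type array. AT5G62080 went from between 667.6 and 985.1 in wild type to 2286.0 and 2289.4 in the double mutant, 2.66-fold (limma, adjusted p = 0.00473). The tapetum gene ATA27 went from between 1637.5 and 2279.6 to 3952.6 and 4600.3, 2.21-fold, and AT1G75920 from between 321.1 and 435.3 to 660.9 and 807.0, 1.86-fold (limma, adjusted p = 0.013 and 0.03). These probe sets exceeded the filter on wild-type arrays too. The fourth, EMS1, which encodes the receptor kinase that specifies tapetum cells, was at -0.31 ± 0.15 (log2; limma, adjusted p = 0.2), with signals of 976.1 to 1145.7 in the double mutant and 1205.7 to 1376.0 in wild type. In the heterozygous mutant, against a background of 1.14% called higher, AT5G62080 rose 2.50-fold (limma, adjusted p = 0.0217), and ATA27 and AT1G75920 were 2.03-fold and 2.08-fold above wild type without passing (0.0515 and 0.0508). The count of 1 became 0 without the untreated heterozygous array or either double-mutant array, and 3 without the IAA array of wild type or of the heterozygous mutant. EMS1 lay below wild type in the heterozygous mutant too, with signals of 974.1 to 1119.3, at -0.33 ± 0.15 (log2; limma, adjusted p = 0.28).

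Over all 8 named tapetum probe sets, whether they passed the filter or not, the median log2 difference in the double mutant was 0.49, with 7 above 0 and 1 below, against a median of 0 over all probe sets. The dim ones included SPL, which encodes a regulator needed for the first sporogenous cells. It read 26.2 to 57.4 in wild type, 112.3 and 165.7 in the heterozygous and 23.5 and 102.5 in the double mutant, so the double-mutant and wild-type arrays overlapped. AT1G06170 read 26.2 to 79.2 in wild type and 84.6 to 127.6 on the mutant arrays. AT5G52160 and AT2G31210 stayed under 90 on every array. Without overlap, 5 of the 8 lay above wild type in the double mutant, where 17.9% of all probe sets did, and 1 below, where 15.5% did.

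The pollen list held 59 further genes, of which 16 had a named probe set and 10 of those exceeded the filter. It too was chosen with earlier results known, so its counts are a description. In the double mutant 5 of the 10 fell and 0 rose, where 7.96% of all probe sets tested were called lower. The 5 became 2 without the double-mutant IAA array. AT5G15110 fell 2.94-fold, from between 1380.9 and 1592.0 to 455.0 and 558.3, and AT2G02720 fell 2.15-fold, from between 731.0 and 1005.7 to 349.5 and 453.6 (limma, adjusted p = 0.00181 and 0.00391). PLIM2a, which encodes an actin-binding LIM protein of pollen, fell 2.02-fold, from between 2421.1 and 2947.4 to 1289.1 and 1422.4 (limma, adjusted p = 0.00699). AT4G39110 and AT2G21480 fell 1.98-fold and 1.99-fold (limma, adjusted p = 0.0212 and 0.0135), the second after passing the filter only through wild-type arrays. In the heterozygous mutant AT5G15110 and AT2G02720 fell, by 2.06-fold and 1.98-fold (limma, adjusted p = 0.024 and 0.0215), where 1.62% of all probe sets tested were called lower. These 2 became 0 without the wild-type IAA array, either array of the heterozygous mutant or either array of the double mutant.

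The pollen genes did not move evenly. AT3G01270 read 6274.7 to 7187.0 in wild type and 5642.6 and 5676.4 in the double mutant, a log2 difference of -0.26 ± 0.14 (limma, adjusted p = 0.248). PLIM2b and the pollen actin gene ACT12 were both at -0.29, and AGL65 and AGL66, which encode MADS-domain factors of pollen, were at -0.25 and -0.34, none past the test (limma, adjusted p from 0.126 to 0.467). Over all 16 named pollen probe sets the median log2 difference was -0.39, with 14 below 0 and 2 above. Without overlap, 10 of the 16 lay below wild type, where 15.5% of all probe sets did. ANX1, which encodes the closest relative of ANX2, read 77.0 to 202.4 in wild type and 84.1 and 97.6 in the double mutant, overlapping, and its highest array was too dim for the filter. The sperm histone gene MGH3 also overlapped, at 17.4 to 192.6 and 128.2 to 141.1.

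**Figure D4:**
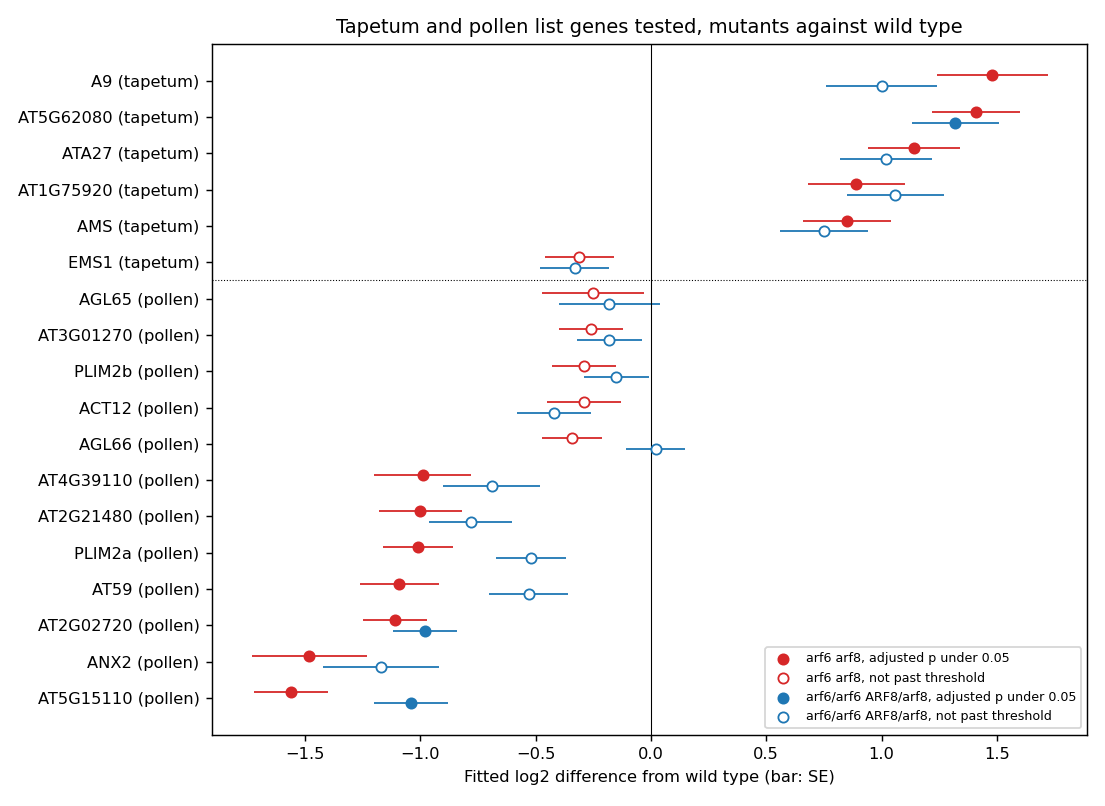
Fitted log2 difference from wild type, with its SE, for every tapetum and pollen list gene that passed the filter, in arf6 arf8 (red) and arf6/arf6 ARF8/arf8 (blue); filled points passed the test. In the double mutant the filled points of tapetum genes lie between 0.85 and 1.48 and those of pollen genes between -1.56 and -0.99, and EMS1 lies with the pollen genes on the negative side.

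Genes with the most similar profile were found by the root mean square difference of centred log2 signals over the 7 arrays, among 6939 other named probe sets. For AT59 the 5 nearest were AT3G21570, AT1G01630, AT3G62710, AT2G03980 and PLIM2a, at 0.076 to 0.106. For ANX2 they were AT1G49290, AT5G15110, AT3G26860, AT5G07420 and cdc2cAt, at 0.13 to 0.169. PLIM2a and AT5G15110 are the list genes among them. For A9 they were AT3G52130, AT4G29250, AT3G57840, AT2G03310 and AT1G76470, at 0.15 to 0.231. AT3G52130, the nearest, read 268.4 to 396.3 in wild type, 612.9 to 796.9 in the heterozygous and 673.3 to 1066.9 in the double mutant. For AMS they were YAB3, AT1G23670, AT3G52570, AT4G33666 and AT1G44224, at 0.138 to 0.166, where YAB3 encodes a YABBY factor of lateral organs. The markers of a cell type were not among each other's 5 nearest: A9 and AMS differed by 0.337 and AT59 and ANX2 by 0.29. Among the 6939 probe sets, AMS had rank 65 in nearness to A9, and A9 rank 196 to AMS. ANX2 had rank 278 in nearness to AT59, and AT59 rank 38 to ANX2.

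Few markers of other flower cells could be read. Of the carpel and ovule list, 2 of 8 genes were measured. SPT, which acts in carpel margin growth, rose in the double mutant (log2 0.73; limma, adjusted p = 0.016), with 622.9 and 801.3 against 395.1 to 486.4 in wild type, and the ovule gene INO was at 0.19 (adjusted p = 0.336). Of the dividing-cell list, AUR1 and AUR2, which encode mitotic Aurora kinases, were at -0.09 and -0.44 (limma, adjusted p = 0.711 and 0.186). The 3 meiosis genes on named probe sets, SDS, ATSPO11-1 and RCK, stayed under 129 on every array and were not tested. No gene of the stamen identity list or of the dehiscence and filament list lay on a named probe set. The part of these other cells in the marker differences was not tested.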

How the data were processed

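The values are linear signal intensities deposited by the authors, 1 per probe set and array; the tool was MAS5, per the submitters' processing notes, and the sources used here do not give its version, scaling or detection calls. A 2% trimmed mean of 500 on every array showed that the authors had scaled them, and this was kept. After removing 64 control probe sets, 22746 remained, of which 13513 carry 1 gene in the platform annotation of 2016, 503 several and 8730 none listed. Symbols come from RefSeq (TAIR10.1), used for names only, and each marker lay on 1 probe set.

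Intensities were floored at the 25th percentile (64.9) and taken to log2. Probe sets whose highest array exceeded the 50th percentile (248.1) were tested, 13021 in all. Genotype and treatment were fitted as additive terms with limma 3.58.1 in R 4.3.3, with 2 residual and 4.945 prior degrees of freedom; p-values were adjusted by Benjamini-Hochberg at 0.05. Fold values are on the floored scale. The method was tested on simulated data with additive effects and independent noise, which cannot show how it handles uneven responses between genotypes. Alternatives were other floors, filters and scalings, an intensity trend, other treatment terms and each array left out. Promoters were not analysed here. A fit with a separate IAA response for the double mutant was added. The number of arrays limits the precision, and p-values measure spread between these arrays only.

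Named were the 4 markers, the list genes past the test with up to 4 others a list, and the 5 nearest profiles of each marker. Members and lists were chosen with earlier results of these data known.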

Additional observations from a re-analysis of the deposited data

Results flagged for a closer look

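The ratio of IAA over untreated flowers had opposite signs in different genotypes for each of the 4 markers, each ratio resting on 1 array per side. On the log2 scale A9 was at 0.43 in wild type, -0.45 in the heterozygous mutant and -0.52 in the double mutant. For ANX2 it was 0.54, -0.15 and -0.58 in that order. For AMS it was 0.29, -0.36 and 0.27, and for AT59 0.36, 0.11 and -0.23. Of all probe sets tested, 11.7% were above untreated in wild type and below it in both mutants, as A9 and ANX2 were. The separate IAA response of the double mutant did not pass for any marker, and the difference between wild type and the heterozygous mutant was not tested. The mutants had no mock array, so their ratios do not separate IAA from the spray.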

How the results depend on the processing

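The limits are 1 array a group, few named probe sets and dim signals for AMS and ANX2. In both mutants every marker kept its direction from wild type under each alternative run. In the double mutant, with no filter, limma passed none of the markers, at unchanged log2 differences of 1.48 for A9, 0.85 for AMS, -1.09 for AT59 and -1.48 for ANX2 (adjusted p from 0.162 to 0.249), with 22746 probe sets fitted and adjusted together. Leaving out single arrays gave 1.02 to 1.94 for A9, 0.68 to 1.01 for AMS, -1.32 to -0.86 for AT59 and -1.93 to -1.03 for ANX2. In the heterozygous mutant A9 (1.0) and ANX2 (-1.17) passed with a filter at the 70th percentile or an intensity trend (limma, adjusted p from 0.0189 to 0.0449), and the ranges with an array left out were 0.54 to 1.45, 0.43 to 1.07, -0.74 to -0.32 and -1.62 to -0.72. AMS was below the 70th percentile filter and has no value there.

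Tapetum list genes higher in the double mutant numbered 3, 0 with no filter and 0 to 3 without an array; pollen list genes lower numbered 5, 0 and 2 to 5. In the heterozygous mutant the tapetum count of 1 was 0 with no filter, 2 after quantile normalization, 3 with the stricter filter, the trend or genotype alone, and 0 to 3 without an array. The pollen count of 2 was 0 with no filter, 1 with genotype alone and 0 to 2 without an array.

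Over all probe sets, the 2227 calls in the double mutant were 2 with no filter and 1438 with genotype alone, and 621 to 2227 without an array, lowest without the double-mutant IAA array. The 360 in the heterozygous mutant were 216 with the floor at the 40th percentile, 1 unfiltered, 578 with the stricter filter, 822 with the trend, 209 with genotype alone, 191 with untreated and mock as one control, and 119 to 363 without an array. Between the mutants the 163 were 77 with the higher floor, 0 unfiltered, 335 with the trend, 97 with genotype alone, 88 with the pooled control and 18 to 388 without an array. For IAA the 141 were 52 with the higher floor, 0 unfiltered, 236 with the stricter filter, 380 with the trend, 2 with the pooled control and 0 to 281 without an array. For mock 98 became 32 at a 10th percentile floor, 0 at the 40th, 906 unfiltered, 4 with the stricter filter, 30 with the trend and 0 to 257 without an array. Where limma called 0, between 1639 and 2533 probe sets had an unadjusted p under 0.05.

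Values near 0 turned sign in comparisons no marker passed. Between the mutants AMS ranged from -0.23 to 0.41 and ANX2 from -0.7 to 0.07 without an array. For IAA the ranges were -0.04 to 0.28 for AMS, -0.06 to 0.23 for AT59 and -0.37 to 0.19 for ANX2, which was also 0.03 with a floor at the 40th percentile. For mock they were -0.82 to 0.09 for A9, -0.27 to 0.15 for AT59 and -0.75 to 0.16 for ANX2. The causes were not tested. The treatment term already sets genotypes against each other within a treatment; no paired analysis by replicate number was possible because the labels carry none.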
